A study of Mus musculus with 3 samples.

Results

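The MHC class II genes were followed through single cells of 3 mouse melanomas. The 9 genes were chosen by name: the chain genes H2-Aa, H2-Ab1 and H2-Eb1, the invariant chain gene Cd74, the transactivator gene Ciita, and H2-DMa, H2-DMb1, H2-Oa and H2-Ob. All 9 were in the count tables, out of 36530 features, of which 26272 had at least 1 UMI (unique molecular identifier, the tag that marks an original mRNA molecule). The tumors arose in a genetically engineered mouse model labelled C57BL/6 and, per the methods, backcrossed to C57BL/6J. Per the same methods, the animals of all groups carried Tyr.CreER and the Braf allele LSL.V600E, and some lines also Rosa26 LSL.tdTomato. Tyr.CreER uses the tyrosinase promoter, which is active in melanocytes, and 4-OH tamoxifen was put on the flank skin to switch on the mutant Braf allele. The groups were 1 tumor that was untreated, 1 that had regressed on vemurafenib, an inhibitor of mutant Braf, and 1 that had progressed on it. The labels used here gave no age, time on drug or pooling of animals. Per the paper, the single-cell tumors were naive, under acute vemurafenib treatment or progressed on it, so time on drug also differed between the treated tumors. With 1 tumor in each group no p-value could be given for any difference between groups, and tumor and treatment cannot be told apart.

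MHC class II molecules are pairs of an alpha and a beta chain that show peptides from endosomes to CD4+ T cells. H2-Aa and H2-Ab1 encode the pair called I-A, and H2-Eb1 encodes the beta chain of I-E. The I-E alpha chain is not made by mice of the C57BL/6 background. Its gene, H2-Ea, was not found by symbol in the count tables. Cd74 encodes the invariant chain, which fills the peptide groove and guides the pair to the endosome. H2-DM, made of H2-DMa and H2-DMb1, exchanges the last piece of Cd74 for a peptide, and H2-O, made of H2-Oa and H2-Ob, holds H2-DM back. Ciita encodes the coactivator on which transcription of these genes depends. Dendritic cells and B cells hold class II at all times, whereas macrophages gain it on stimulation, above all by interferon gamma.

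In the RefSeq annotation of GRCm38.p6 the 8 members placed here are protein-coding genes. Those on chromosome 17 number 7 and lie within 224 kb, from H2-Oa (chr17:34092379-34095234) over H2-DMa (chr17:34119693-34139101), H2-DMb1 (chr17:34153191-34160229), H2-Ob (chr17:34238905-34245908), H2-Ab1 (chr17:34263227-34269418) and H2-Aa (chr17:34282744-34287823) to H2-Eb1 (chr17:34305867-34316674). Ciita lies at chr16:10480014-10531064. Class II promoters are known for an X box, bound by RFX, followed by a Y box, bound by NF-Y, and the factors on both recruit the Ciita protein. The next stretches come from RefSeq promoter windows of GRCm38.p6, which run from 250 bases before to 50 bases after a gene's start. They are shown because they carry the letters that the members share. Each is 62 bases long and is written 5′ to 3′ on the gene's own strand. Capitals mark GATTGG, the core of a Y box, and AACNNATG, letters found at the X box position.
H2-Eb1 (plus strand, chr17:34305759-34305820): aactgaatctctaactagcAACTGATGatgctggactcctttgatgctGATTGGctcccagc
H2-DMb1 (plus strand, chr17:34153081-34153142): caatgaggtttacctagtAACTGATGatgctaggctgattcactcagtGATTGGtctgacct
H2-Ob (plus strand, chr17:34238799-34238860): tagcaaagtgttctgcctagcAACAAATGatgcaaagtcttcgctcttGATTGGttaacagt
H2-Aa (minus strand, chr17:34287859-34287920): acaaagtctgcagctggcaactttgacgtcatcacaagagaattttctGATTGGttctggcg
H2-Oa (plus strand, chr17:34092287-34092348): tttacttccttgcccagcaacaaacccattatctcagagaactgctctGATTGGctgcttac
The 6 member genes with a promoter window had 7 windows. Of these windows 6, from each of the genes, held GATTGG on either strand, and so did 5292 of all 32851 windows (16.1%). AACNNATG was found on either strand in 3 of the 7 member windows and in 2912 of all windows (8.86%). The motifs do not overlap each other in the stretches shown. Both motifs in this order, 25 to 35 bases apart, stood in H2-Eb1, H2-DMb1 and H2-Ob and in 12 windows altogether (0.0365%), and 5 of the 12 genes that own these windows have symbols starting with H2-. The motifs were chosen after these windows were read, and a match is a description of letters only. H2-Ab1, Cd74 and Ciita were not in the promoter table.

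The tables held 12670 cells, 4095 from the untreated, 3726 from the regressed and 4849 from the progressed tumor. Median depth was 4496, 2658 and 4566 UMIs per cell in the same order, and in total the tumors had 22202192, 12413268 and 26948940 UMIs. The regressed tumor stood apart in other ways as well. Xist had 5 UMIs in it, against 33176 and 46755 (1494 and 1735 CPM) in the untreated and progressed tumors. In contrasts with the regressed tumor, sex of the animal therefore cannot be told apart from group. The summed level of 4 red cell genes was 1582 to 1884 CPM, UMIs per 1000000 UMIs of the summed cells, in each of the regressed Macrophages, Monocytes1, Monocytes2 and pooled stroma clusters, 30.4 to 51.6 CPM in the untreated tumor and at most 1.98 CPM in the progressed tumor. Cells were named by the cluster given by the authors. Cell names carried no barcode sequence, so barcodes shared between libraries were not counted. Intervals are 95% exact Poisson or binomial intervals and cover counting error within a tumor only.

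Class II transcripts lay mainly in the 3 myeloid clusters, Macrophages, Monocytes1 and Monocytes2. Here the summed UMIs of H2-Aa, H2-Ab1 and H2-Eb1 are called the chain sum. The myeloid clusters made up 14.8% of the cells of the untreated tumor and held 96.1% of its chain sum. The corresponding values were 10.7% and 81.4% in the regressed tumor, and 11.4% and 90.8% in the progressed tumor. Over all cells the 9 members had 333643 UMIs, and 46.9% of them were Cd74. Since each UMI stands for the 3′ end of a transcript, levels were not divided by length.

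Monocytes2 had the highest chain sum in each tumor, 38884 CPM (38295 to 39480) untreated, 34166 CPM (33619 to 34720) regressed and 40193 CPM (39803 to 40585) progressed. Macrophages followed with 13803 CPM (13594 to 14014), 24494 CPM (23906 to 25092) and 27710 CPM (27421 to 28002). Monocytes1 were lowest of the 3 clusters at 4576 CPM (4451 to 4702), 11793 CPM (11560 to 12030) and 6476 CPM (6163 to 6800). No intervals of neighbouring clusters overlapped within a tumor. Monocytes2 held 41.5%, 38.8% and 47.7% of the chain sum of the untreated, regressed and progressed tumor while forming 1.68%, 1.53% and 3.32% of the cells.

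**Figure D1:**
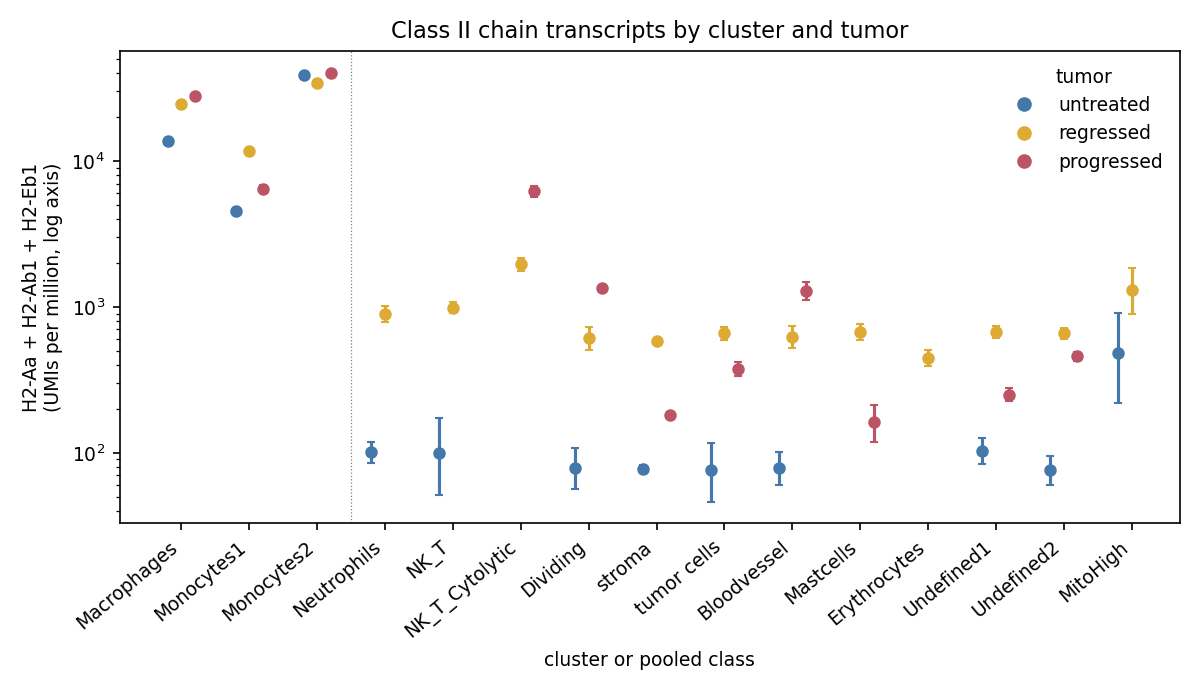
Summed level of H2-Aa, H2-Ab1 and H2-Eb1 in CPM (log axis) in clusters with at least 20 cells, with stroma and tumor cells pooled, by tumor, and bars for 95% counting intervals. Monocytes2, Macrophages and Monocytes1 lie above the other clusters in the untreated and regressed tumors, and the NK_T_Cytolytic cluster of the progressed tumor, at 6202 CPM, comes near the Monocytes1 level.

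The name Monocytes2 was checked against marker genes. The 10 dendritic cell genes summed to 1757, 1158 and 2163 CPM there in the untreated, regressed and progressed tumor, against 117 to 191 CPM in Monocytes1. Conversely, 6 monocyte genes summed to 2467 to 3015 CPM in Monocytes2 and 13540 to 30308 CPM in Monocytes1. Flt3, a growth factor receptor of dendritic cells, had 122, 163 and 90.9 CPM in Monocytes2 and at most 10.7 CPM in Macrophages and Monocytes1. The dendritic cell markers thus went against the deposited name, which is kept here as the name of the cluster. B cell genes were nearly absent there, with Ms4a1 at 0, 2 and 15 UMIs.

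H2-Aa, the I-A alpha chain, had 5741, 7936 and 9979 CPM in Macrophages of the untreated, regressed and progressed tumor. In Monocytes1 it had 1689, 4166 and 2376 CPM. Monocytes2 showed 13452, 11431 and 14041 CPM. H2-Aa was thus highest in Monocytes2 of every tumor, and the untreated Macrophages were lowest of the 3 Macrophages values.

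H2-Ab1, the I-A beta chain, had 4184, 8912 and 8923 CPM in Macrophages, in the order untreated, regressed, progressed. Its level was 1757, 4464 and 2540 CPM in Monocytes1 and 14653, 13562 and 14528 CPM in Monocytes2. H2-Eb1, the I-E beta chain, had 3879, 7646 and 8808 CPM in Macrophages. In Monocytes1 H2-Eb1 had 1129, 3162 and 1560 CPM, and in Monocytes2 10779, 9174 and 11624 CPM. Both beta chains were lowest in the untreated tumor in Macrophages and in Monocytes1.

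Cd74, the invariant chain, was the most abundant member, with 13411 CPM (13205 to 13619) in untreated Macrophages, 24204 CPM (23620 to 24799) in regressed and 24811 CPM (24537 to 25087) in progressed ones. Monocytes1 had 5361, 11505 and 6608 CPM of Cd74. Monocytes2 had 36835, 35564 and 40268 CPM. Between 99.4% and 100% of Monocytes2 cells had a Cd74 UMI, as did 90.7% to 99.1% of Macrophages and 69.8% to 96.2% of Monocytes1.

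**Figure D2:**
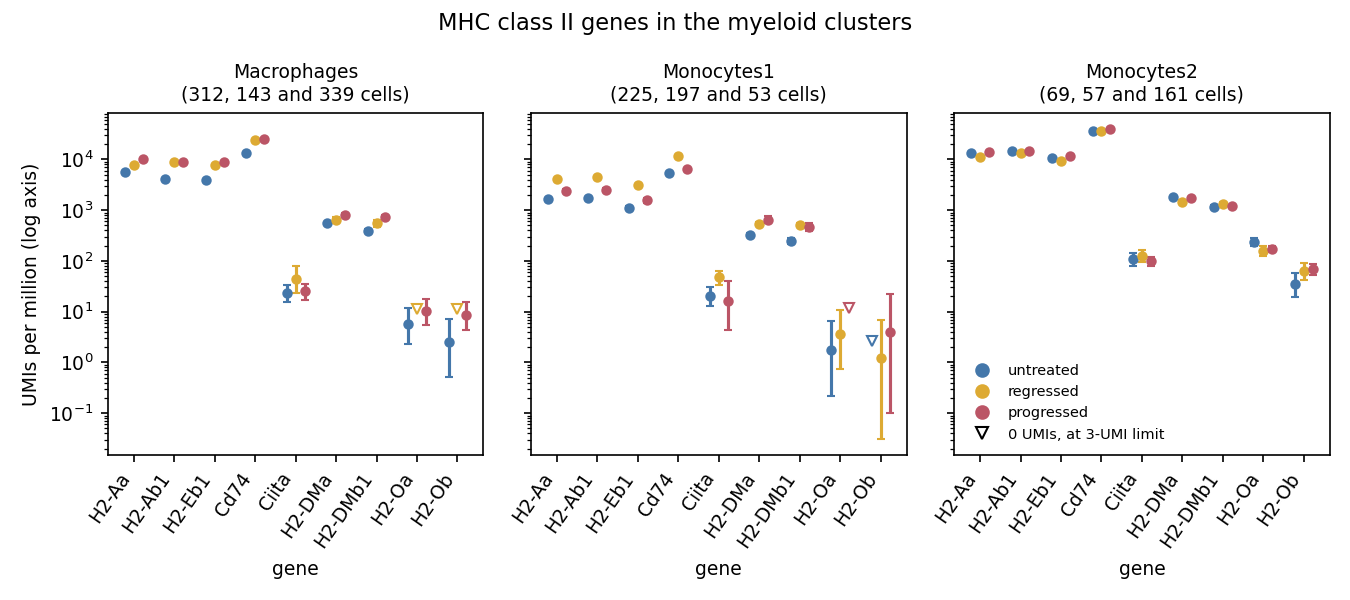
Level of each member in CPM (log axis) in Macrophages, Monocytes1 and Monocytes2 of the 3 tumors, with bars for 95% counting intervals and open triangles for 0 UMIs, drawn at the level of 3 UMIs. H2-Oa and H2-Ob separate Monocytes2 from the other clusters most, and Ciita is at least 98.8 CPM in Monocytes2 and at most 47.3 CPM in the others.

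Ciita, the transactivator, was sparse, with 393 UMIs in 300 cells of the whole series. Monocytes2 had 110.1 CPM (80.9 to 146) untreated, 126 CPM (95.2 to 165) regressed and 98.8 CPM (80.4 to 120.1) progressed. Macrophages had 23.1 CPM (15.4 to 33.4), 44.5 CPM (23.0 to 77.8) and 25.3 CPM (17.3 to 35.7), resting on 28, 12 and 32 UMIs. In Monocytes1 it had 20.5, 47.3 and 16.1 CPM, the last from 4 UMIs. Each Monocytes2 interval lay above those of Macrophages and Monocytes1 of the same tumor. Between tumors the Ciita intervals overlapped within each of the 3 clusters, save for untreated (13.0 to 30.7) against regressed (33.7 to 64.7) Monocytes1.

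H2-DMa, the alpha chain of H2-DM, had 548, 642 and 821 CPM in Macrophages of the untreated, regressed and progressed tumor. It had 322, 539 and 655 CPM in Monocytes1 and 1787, 1471 and 1730 CPM in Monocytes2. H2-DMb1, its beta chain, had 389, 557 and 744 CPM in Macrophages. Its Monocytes1 levels were 247, 504 and 470.3 CPM, and its Monocytes2 levels 1159, 1354 and 1184 CPM. Thus both H2-DM chains were highest in Monocytes2, and lowest in the untreated tumor in Macrophages and Monocytes1.

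H2-Oa and H2-Ob, the chains of the H2-DM inhibitor, lay mostly in Monocytes2. There H2-Oa had 237 CPM (193 to 287) untreated, 159 CPM (123 to 201) regressed and 172 CPM (147 to 199) progressed. H2-Ob had 35.1 CPM (19.7 to 57.9), 64.4 CPM (42.8 to 93.0) and 68.1 CPM (53.0 to 86.2). By contrast, Macrophages gave 7, 0 and 13 UMIs of H2-Oa and 3, 0 and 11 UMIs of H2-Ob. The 0 UMIs in regressed Macrophages allow up to 11.1 CPM of either gene (3 UMIs in the summed counts). Monocytes2 held 83.5%, 65.7% and 83.3% of all H2-Oa UMIs of the 3 tumors, and 71.4%, 80.0% and 75.0% of H2-Ob. These rested on 148 H2-Ob UMIs in the whole series.

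In Macrophages the chain sum was higher in both treated tumors than in the untreated tumor. On the log2 scale the regressed tumor stood 0.83 (0.79 to 0.87) above it and the progressed tumor 1.01 (0.98 to 1.03). Progressed against regressed gave 0.18 (0.14 to 0.22), which was 0.42 with TMM scaling and 0.019 with thinned cells, where the interval held 0. Thinning left out 51 shallower regressed cells. Over all features compared, the median log2 difference was -0.04, -0.11 and -0.06 in these 3 contrasts, against 0.85, 0.86 and 0.20 over the members counted.

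Single members differed in size. From untreated to regressed Macrophages H2-Ab1 was higher by 1.09 (1.02 to 1.16) on the log2 scale, H2-Eb1 by 0.98 (0.90 to 1.05), Cd74 by 0.85 (0.81 to 0.89) and H2-Aa by 0.47 (0.40 to 0.54). H2-DMa differed by 0.23 with an interval that included 0 (-0.02 to 0.47). In progressed against untreated Macrophages the values were 1.18 (1.13 to 1.23) for H2-Eb1, 1.09 (1.04 to 1.14) for H2-Ab1, 0.93 (0.77 to 1.10) for H2-DMb1, 0.89 (0.86 to 0.91) for Cd74, 0.80 (0.76 to 0.84) for H2-Aa and 0.58 (0.44 to 0.73) for H2-DMa. Ciita differed by 0.13 (-0.65 to 0.91), an interval wide enough to hold the difference of the chains.

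A fold of 2, among features with at least 20 UMIs in the 2 sums together, was used to set the members beside all features. In regressed against untreated Macrophages 1 of 7 members counted (H2-Ab1) was higher by this fold, as were 7.69% of all features, and 0 were lower, beside 10.9%. In progressed against untreated Macrophages 2 of 8 (H2-Ab1 and H2-Eb1) were higher, beside 3.55% of all features, and 0 were lower, beside 4.84%. In progressed against regressed Macrophages 0 members passed in either direction, beside 9.24% higher and 9.05% lower. Members are not independent of each other, and the 2 treated tumors share the untreated tumor as their control.

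In regressed against untreated Monocytes1 the chain sum was higher by 1.37 (1.32 to 1.41) on the log2 scale, and 6 of 7 members counted passed the fold of 2, all but H2-DMa at 0.74 (0.54 to 0.95), beside 12.5% of all features. In progressed against untreated Monocytes1 the sum differed by 0.50 (0.42 to 0.58), and 1 of 7 members (H2-DMa, 1.02) passed, beside 6.53%. In progressed against regressed Monocytes1 the difference was -0.86 (-0.94 to -0.79), and 2 of 7 (H2-Eb1 at -1.02 and Ciita at -1.56) were lower by the fold, beside 19.0%. Of the 53 progressed Monocytes1 cells, 3 held 45.5% of the chain sum. Without the 3 cells with the most chain UMIs of each tumor, the progressed level was 3820 CPM and the untreated level 3968 CPM, and the difference turned to -0.05 (-0.16 to 0.05).

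In Monocytes2, on the log2 scale, the chain sum of the regressed tumor stood at -0.19 (-0.22 to -0.15) relative to the untreated tumor, and that of the progressed tumor at 0.05 (0.02 to 0.07). The latter turned to -0.11 (-0.14 to -0.08) without the 5% deepest cells, and with thinned cells its interval held 0. The progressed tumor exceeded the regressed by 0.23 (0.21 to 0.26). None of the 9 members passed the fold of 2 in either direction in any of the 3 contrasts, beside 18.0%, 10.9% and 19.5% of all features. H2-Ob stood farthest from 0, at 0.96 (0.14 to 1.87) in progressed against untreated cells, from 69 and 15 UMIs, and at 0.87 (-0.08 to 1.88) in regressed against untreated cells. H2-Oa was at -0.58 (-1.04 to -0.12) in the latter contrast.

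**Figure D3:**
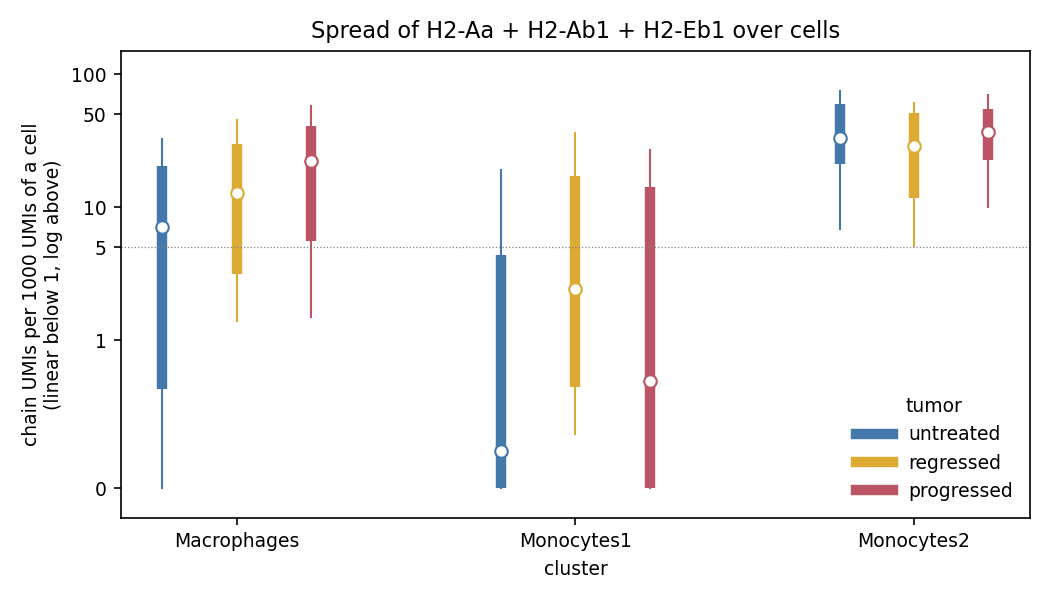
Chain sum per 1000 UMIs in single cells of the 3 myeloid clusters, by tumor, on an axis that is linear below 1 and log above, with the median as a circle, the quartiles as a thick bar, the outer deciles as a thin line, and a dotted line at 5. Medians lie between 28.9 and 36.7 in Monocytes2, between 7.10 and 22.2 in Macrophages and between 0.249 and 2.43 in Monocytes1.

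Cells of 1 cluster did not share 1 class II level. The median chain sum per 1000 UMIs was 7.10 in untreated Macrophages, with quartiles at 0.674 and 20.3. It was 12.7 (3.18 to 29.6) in regressed and 22.2 (5.55 to 40.7) in progressed Macrophages. Monocytes1 medians were 0.249, 2.43 and 0.722, with upper quartiles at 4.39, 17.2 and 14.2, so most Monocytes1 cells were low and a minority carried the sum. Monocytes2 medians were 33.1, 28.9 and 36.7.

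To compare shares of cells across depths, each cell was thinned to 1000 UMIs, and a cell with at least 5 chain UMIs was called class II-high, which is a range and not a cell type. In Macrophages 165 of 304 cells of the untreated tumor were class II-high (54.3%, 48.5 to 60.0), 77 of 92 of the regressed tumor (83.7%, 74.5 to 90.6) and 262 of 332 of the progressed tumor (78.9%, 74.1 to 83.2). Shallower cells left out numbered 8, 51 and 7, and 48, 10 and 29 cells lay near the limit, at 3 to 6 UMIs. In regressed Macrophages the median chain sum per 1000 UMIs was 12.7 over all 143 cells and 23.5 over the 92 thinned ones. The regressed share therefore describes the deeper cells only, which were richer in class II. For the untreated and progressed tumors these medians were 7.10 and 22.2 over all cells, and 5.5 and 20.5 over thinned cells. The regressed and progressed intervals overlapped each other and lay above the untreated interval. Unthinned, 85.3%, 95.1% and 98.2% of Macrophages had a chain UMI, whereas 32.0%, 79.7% and 53.8% of stroma cells did. In Monocytes1 24.2%, 41.8% and 36.7% of cells were class II-high, and in Monocytes2 90.9%, 91.1% and 96.2%.

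Among Macrophages, Cd74, Ciita and both H2-DM chains were higher in class II-high cells. Cd74 had 23039 CPM in class II-high and 1995 CPM in other cells of the untreated tumor, a log2 difference of 3.53 (3.44 to 3.62), and the progressed tumor gave 3.50 (3.39 to 3.62). H2-DMa differed by 2.37 (2.05 to 2.70) and 1.93 (1.56 to 2.32), and H2-DMb1 by 2.75 (2.33 to 3.19) and 2.96 (2.43 to 3.54). Ciita had 27 UMIs in high against 1 in other cells of the untreated tumor, and 31 against 1 in the progressed tumor. In the untreated tumor H2-Oa had 6 against 1 UMIs and H2-Ob 1 against 2. In the progressed tumor H2-Oa had 13 against 0 UMIs and H2-Ob 11 against 0, from 262 and 70 cells. With 3 UMIs in place of 0, these log2 differences were 0.10 and -0.14. The regressed tumor had only 15 other cells and is left out of these values. Median depth was 3461 and 3568 UMIs in high and other cells of the untreated tumor, and 3580.5 and 3129 in the progressed tumor.

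Genes outside the family also differed between these cells. For them the UMIs of the 9 members were left out of the denominators. Ccr2, the chemokine receptor of recruited monocytes, was higher in class II-high Macrophages by 1.41 (1.20 to 1.62) on the log2 scale in the untreated and 1.43 (0.94 to 1.97) in the progressed tumor. Folr2, the folate receptor beta, was lower, at -1.39 (-1.72 to -1.07) and -1.61 (-1.84 to -1.38), and Lyve1, a hyaluronan receptor, at -1.39 (-1.80 to -0.99) and -3.37 (-3.87 to -2.89). Mrc1, the mannose receptor, was at -0.99 (-1.16 to -0.82) and -0.98 (-1.15 to -0.82), and Cd163, the haemoglobin scavenger receptor, at -1.07 and -0.91. C1qa, a complement gene of macrophages, differed by -0.03 (-0.11 to 0.05) and 0.07 (-0.01 to 0.15). C1qb, from the same list of macrophage genes, was higher, at 0.26 (0.19 to 0.33) and 0.36 (0.28 to 0.44). Adgre1, also on it, was at -0.76 (-1.08 to -0.44) in the untreated and 0.22 (-0.08 to 0.52) in the progressed tumor. Over all UMIs, members included, a setting chosen after seeing the data, C1qa stood at -0.10 (-0.17 to -0.02) and -0.02 (-0.10 to 0.06). Lyz2 was at -0.13 in the untreated and 0.80 in the progressed tumor, so its sign was not shared. The split used the chain genes of these same cells, and cells are not replicates, so these values are a description.

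**Figure D4:**
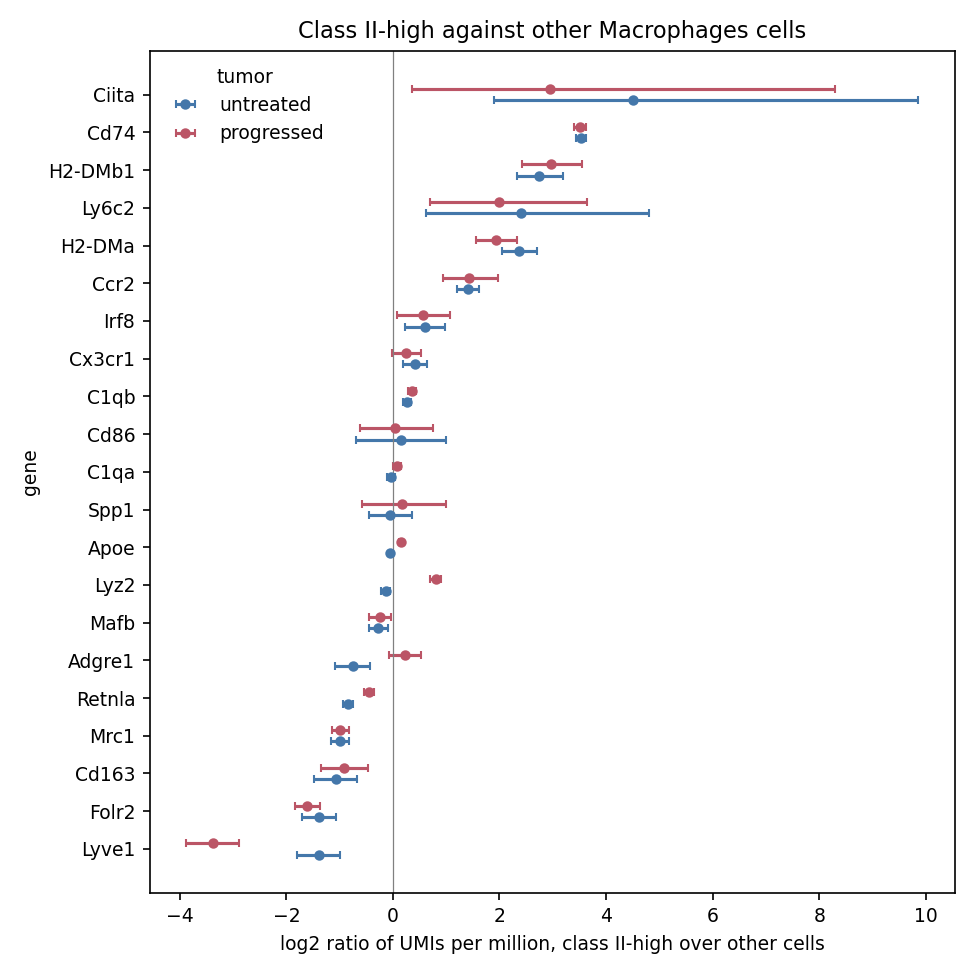
Log2 difference between class II-high and other Macrophages for the other members and for macrophage and monocyte genes, in the untreated and progressed tumors, with 95% counting intervals. Cd74, H2-DMa, H2-DMb1 and Ccr2 lie to the high side and Folr2, Lyve1, Mrc1 and Cd163 to the low side in both tumors.

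Within Monocytes2, cells with a UMI of a dendritic cell marker were set side by side over the 3 tumors, and these groups overlap each other. The 32 cells with Cd207, the Langerhans cell lectin langerin, had a chain sum of 61151 CPM and 160.0 CPM of Ciita. The 119 cells with Cd209a, a lectin of monocyte-derived and type 2 dendritic cells, had 45367 CPM. The 33 cells with Xcr1 or Clec9a, markers of cross-presenting dendritic cells, had 38155 CPM, along with 292 CPM of H2-Oa and 156 CPM of H2-Ob. The 35 cells with Siglech, a plasmacytoid dendritic cell marker, had 34440 CPM. Siglech was not particular to Monocytes2, with 63.2, 260 and 61.2 CPM there and 6.61, 40.8 and 71.1 CPM in Macrophages (untreated, regressed, progressed). The 79 cells with Ccl17 or Ccl22, chemokines of mature dendritic cells, had 44616 CPM untreated, 37101 CPM regressed and 45317 CPM progressed. The 14 cells with Ccr7, the lymph node homing receptor, were lowest at 14792 CPM with 0 UMIs of Ciita. All 287 Monocytes2 cells together had 38496 CPM. The sums pool tumors of differing levels, and the order was not the same in each. Siglech cells had 31148 CPM untreated, 24981 CPM regressed and 47869 CPM progressed, the last above the 41213 CPM of Xcr1 or Clec9a cells there. Cd207 itself had 379, 27.6 and 291 CPM in Monocytes2 of the untreated, regressed and progressed tumor.

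Outside the myeloid clusters the chain sum was low, yet it was not the same in the 3 tumors. Clusters of at least 20 cells ranged from 66.6 to 482 CPM (untreated), 447 to 1967 CPM (regressed) and 158 to 6202 CPM (progressed). The untreated top was the MitoHigh cluster, with 9 chain UMIs in 30 cells, and the next cluster had 103 CPM. In the regressed top, NK_T_Cytolytic, 257 of 383 chain UMIs were in a single cell. Pooled stroma had 77.4 CPM (72.8 to 82.1), 586 CPM (568 to 606) and 181 CPM (175 to 187). Tumor cells, pooled from Tumor1 and Tumor2, had 75.8 CPM (46.3 to 117), 661 CPM (597 to 730) and 374 CPM (334 to 418). The Bloodvessel cluster had 78.3 CPM (59.9 to 101), 620.3 CPM (519 to 735) and 1293 CPM (1121 to 1483). The 3 compartments overlapped in the untreated tumor, and each was higher in the other tumors.

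Myeloid clusters exceeded stroma in the chain sum 180.0-fold in the untreated tumor. The regressed tumor gave 34.8-fold and the progressed tumor 169-fold. Over tumor cells the fold was 184, 30.9 and 81.9, and over Bloodvessel 178, 32.9 and 23.7. All 8 members that could be counted, all but H2-Ob, were over 10-fold higher in myeloid clusters than in stroma in each tumor, beside 3.15% of all features, and 9.33% were over 2-fold higher. The clusters were built from these genes among others, so no test was made.

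Each class II member was then read beside 10 leukocyte genes, Ptprc, Tyrobp, Fcer1g, Lyz2, C1qa, C1qb, C1qc, Cd52, Laptm5 and Coro1a. Stroma carried 0.556%, 2.87% and 0.591% of the myeloid chain level in the untreated, regressed and progressed tumor. For the 10 leukocyte genes the same percentage ranged from 0.221 to 1.52 (untreated), 0.881 to 5.54 (regressed) and 0.217 to 1.0 (progressed). The chain percentage lay inside that range in every tumor, as did Cd74 at 0.422%, 2.10% and 0.438%. H2-DMb1 lay above it in the untreated and progressed tumors, at 3.25% and 2.13%, and inside it at 3.59% in the regressed tumor. H2-DMa, at 1.21%, 3.60% and 1.27%, lay above it in the progressed tumor. The part of RNA from leukocytes in the stroma values was not tested.

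**Figure D5:**
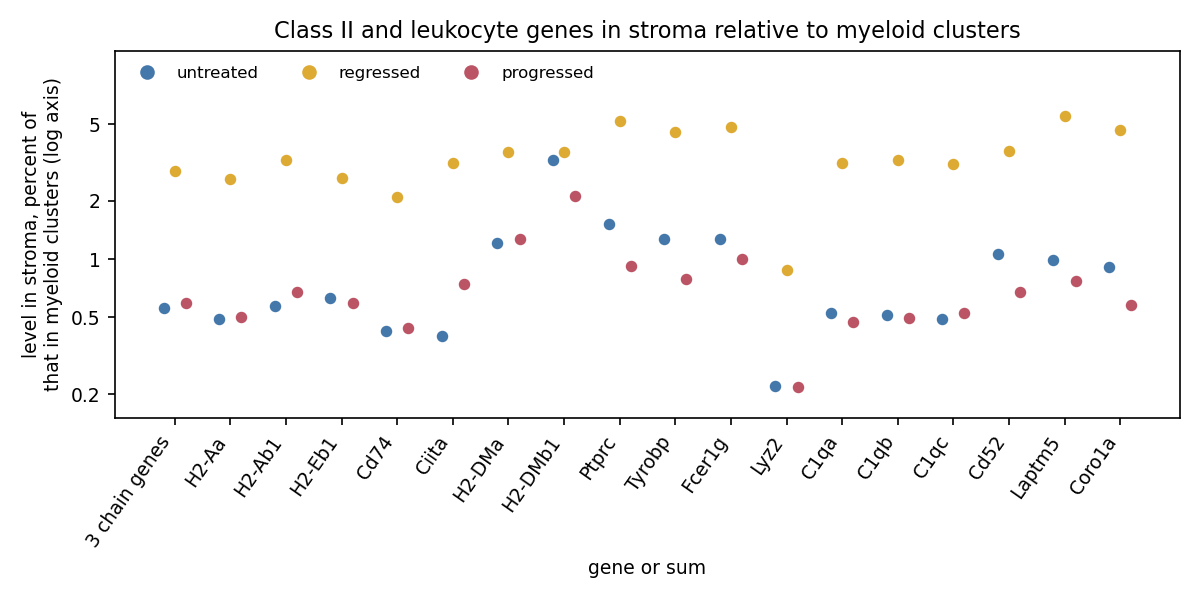
Level in pooled stroma as a percentage of the level in pooled myeloid clusters (log axis) for class II members and 10 leukocyte genes, by tumor. Every gene plotted is highest in the regressed tumor on this scale, by least for H2-DMb1, at 3.25, 3.59 and 2.13% (untreated, regressed, progressed).

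In regressed against untreated stroma the chain sum was higher by 2.92 (2.82 to 3.02) on the log2 scale, and 5 of 6 members counted passed the fold of 2, beside 13.7% of all features. In progressed against untreated stroma it was higher by 1.23 (1.13 to 1.33), and 4 of 6 passed, beside 3.57%. In progressed against regressed stroma it was lower, at -1.70 (-1.76 to -1.63), and 5 of 7 passed, beside 15.9%. H2-DMb1 had 14.6, 27.1 and 19.0 CPM in stroma, the narrowest spread of the members with over 100 UMIs. Of the regressed stroma cells 1537 were in Stroma10 and 310 in Stroma9, clusters with at most 7 cells in any other tumor. In the clusters with at least 10 cells in each tumor, Stroma3, Stroma4, Stroma6 and Stroma8, the regressed chain sum was 482 to 566 CPM, from 12, 20, 13 and 18 cells, above 66.6 to 98.5 CPM untreated and 158 to 211 CPM progressed. Stroma cells with 0 UMIs of the 10 leukocyte genes, 1088, 337 and 1745 cells in the untreated, regressed and progressed tumor, had 78.7, 649 and 175 CPM, close to all stroma cells.

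A few cells decided the highest levels outside the myeloid clusters. Of the 502 chain UMIs of progressed NK_T_Cytolytic cells, 330 were in a single cell and 133 in another. The Dividing cluster of the same tumor had cells with 993 and 904 of its 2259 chain UMIs. In progressed Bloodvessel cells 161 of 203 chain UMIs were in a cell with 186 Cd74 UMIs, 1 Ciita UMI, 18 UMIs of endothelial genes and 0 of the 10 leukocyte genes. A progressed Tumor1 cell had 151 chain UMIs beside 131 of Cd74, 48 of leukocyte genes and 0 of melanocyte genes. Without the cell with the most chain UMIs, the myeloid fold in the progressed tumor was 154 over tumor cells and 99.0 over Bloodvessel. No doublet caller was run, and whether such cells were doublets was not tested.

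Class II-high cells outside the myeloid clusters were rare. All 278 high cells of the untreated tumor were myeloid, as were 205 of 213 regressed and 430 of 450 progressed ones. Of the 8 in the regressed tumor, every cell had a UMI of the leukocyte genes. Of the 20 in the progressed tumor, 18 did, and the others were a Bloodvessel and an Undefined1 cell. In stroma 0 of 2599 thinned cells were high in the untreated tumor, which allows a share of up to 0.115% (3 cells of those thinned), and 9 of 3400 (0.265%) in the progressed tumor.

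The share of each chain was also read. H2-Aa formed 41.6% of the chain UMIs of untreated Macrophages, 32.4% of regressed and 36.0% of progressed ones. In Monocytes2 it formed 34.6%, 33.5% and 34.9%, and in Monocytes1 36.9%, 35.3% and 36.7%. Class II-high Macrophages alone gave 41.6%, 32.1% and 36.0%, so the higher untreated value was present there too. For each 100 chain UMIs, Macrophages had 97.2, 98.8 and 89.5 UMIs of Cd74, Monocytes2 94.7, 104 and 100.2, and Monocytes1 117, 97.6 and 102. Stroma had fewer, 75.0, 73.6 and 70.6. For H2-DMb1 stroma had 18.9, 4.62 and 10.5 UMIs per 100 chain UMIs, and the myeloid clusters 2.27 to 7.26.

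Some counts overlapped with other features. Entrez feature 102641359 counted 57594 UMIs, never exceeded H2-Ab1 in a cell and equalled it in 93.2% of cells. UMIs given to H2-Ab1 but not to it were 15.0%, 20.7% and 5.80% of H2-Ab1 in stroma, against 0.211%, 1.06% and 0.158% in myeloid clusters. Entrez feature 102642102 equalled H2-DMb1 in 99.5% of cells. Reads of these pairs cannot be told apart by name, and H2-DMb1 also has a close copy, H2-DMb2.

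The features most like the chain sum were found by Pearson r of log2(CPM + 1) over 53 pairs of cluster and tumor with at least 20 cells each, among 12956 features with at least 200 UMIs. H2-Ab1 gave r of 0.997, and H2-Aa and H2-Eb1 0.993, but these genes make up the sum, so a high r was fixed in advance. Of the other members, Cd74 gave 0.990, H2-DMa 0.960, Ciita 0.887, H2-DMb1 0.807 and H2-Oa 0.641. Beyond the members and Entrez feature 102641359, which overlaps H2-Ab1, Ctss, the cathepsin that trims the invariant chain, came nearest at 0.900. It was followed by Clec4b1 (0.860), Aif1 (0.855), Clec4a1 (0.854), Mir5107 (0.848), Ptpro (0.838) and Marchf1 (0.837), the last a ligase that marks class II for removal from the surface. Mir5107 lies within Cd74, so its r may recount that member, which was not tested. Within the myeloid clusters Ctss was lowest in Monocytes2 of each tumor, where the chain sum was highest. It had 1942, 2083 and 1450 CPM there in the untreated, regressed and progressed tumor. Macrophages had 2650, 3445 and 2594 CPM of Ctss, and Monocytes1 2461, 3563 and 3429 CPM. The pairs share libraries and depth, so r is a description.

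Of 46 genes listed for the class II pathway 44 were in the tables, and 16 were over 2-fold higher in myeloid clusters than in stroma in each tumor, where the share over all features was 9.33%. They were 4 of 12 regulators (Irf8, Spi1, Irf4 and Prdm1), 5 of 10 genes of peptide loading (Ctss, Lgmn, Ifi30, Marchf1 and Cd83), 3 of 5 costimulatory genes (Cd80, Cd86 and Cd40), 3 of 5 partners (Cd44, Cxcr4 and Cd4) and H2-DMb2, but 0 of 10 genes of the interferon gamma axis. Rfx5, a subunit of the RFX complex, had 9.78, 9.82 and 9.89 CPM in myeloid clusters and 11.0, 7.63 and 8.64 CPM in stroma. These Rfx5 levels pool the clusters and carry no interval. Macrophages had 14.05, 25.98 and 16.6 CPM of Rfx5. Monocytes1 had 5.34, 6.07 and 0 CPM, and Monocytes2 9.37, 6.9 and 3.95 CPM. Rfxap had 38.8, 39.3 and 25.7 CPM in myeloid clusters and 23.4, 22.7 and 21.4 CPM in stroma. For Rfxank these were 9.42, 6.54 and 8.31 CPM, and 9.31, 13.2 and 6.88 CPM. A link between the levels of these genes and those of the members was not tested.

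Of the 44, those with at least 20 UMIs in both sums of Macrophages numbered 37 in regressed against untreated cells. Of these, 4 were over 2-fold higher, beside 7.69% of all features, and 2 lower, beside 10.9%. In progressed against untreated cells 6 of 41 were higher, beside 3.55%, and 1 lower, beside 4.84%. In progressed against regressed cells 3 of 37 were higher, beside 9.24%, and 1 lower, beside 9.05%. Cst3, the cathepsin inhibitor cystatin C, had 3479, 7004 and 7247 CPM in untreated, regressed and progressed Macrophages. Cd83, which keeps class II at the surface, had 259, 81.7 and 598 CPM. Of 9 interferon gamma axis genes counted in progressed against untreated cells, 3 were over 2-fold higher and 6 stayed within the fold. Among the higher ones, Cxcl9, a T cell chemokine, had 0, 3.71 and 91.7 CPM. Gbp2, a guanylate-binding protein, had 9.09, 18.6 and 41.9 CPM. Among those within it, Irf1 had 88.4, 74.2 and 111 CPM, and Socs1 had 21.5, 14.8 and 28.4 CPM. Cd86, a costimulatory ligand, had 43.0, 66.8 and 92.5 CPM. Cxcl9, Gbp2 and Cd86 were highest in the progressed tumor. Against regressed cells the Gbp2 and Cd86 intervals held 0, at -0.14 to 2.85 and -0.25 to 1.27 on the log2 scale. Irf4 had 21.5, 11.1 and 2.37 CPM across the tumors and was over 2-fold lower in progressed than in untreated cells. Between progressed and regressed cells Irf4 had too few UMIs to be counted, at -2.23 (-5.13 to 0.67).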

How the data were processed

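Cells of 3 dissociated tumors were profiled with a droplet 3′ kit (version 2 chemistry). The authors aligned reads to GRCm38 with GSNAP, kept unique mappers and deposited UMI counts per gene and cell, counted over exons in sense orientation, one table per tumor. The deposited cell table gives other values per cell, namely total UMIs, genes detected and the cluster name the authors made with Seurat 2.2.0. UMIs summed over each count table came to 4.42 to 6.09% more than the totals of the cell table. All cells of the tables were used, no doublets were removed, and 0 columns were left unused. Entrez IDs were matched to RefSeq symbols.

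Counts were summed per tumor and cluster and divided by all UMIs of the sum (CPM), but by UMIs outside the 9 members for other genes in class II-high against other Macrophages. CPM and ratios carry 95% exact intervals from scipy 1.17.1 (Poisson, conditional binomial). Shares carry Clopper-Pearson intervals. A fold against 0 uses 3 UMIs per summed group. Molecules within a cell are not independent, so intervals cover counting error only. Cells were thinned to 1000 UMIs with seed 1. The fold count needs 20 UMIs in both sums together and was tested on simulated data. edgeR 4.0.16 (R 4.3.3) gave alternative scaling factors only. Other tools were Python 3.11.15, numpy 2.4.6, pandas 2.3.3 and matplotlib 3.10.9. Named genes were the members, the listed pathway genes with a fold of 2, and the features with the highest r. Members, lists and alternatives were chosen with earlier results of these data known. Some alleles and genes are not reported here.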

Additional observations from a re-analysis of the deposited data

Results flagged for a closer look

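The chain sum differed in direction between myeloid clusters in the same pair of tumors. From untreated to regressed it was higher by 0.83 on the log2 scale in Macrophages and by 1.37 in Monocytes1, but stood at -0.19 in Monocytes2. From regressed to progressed it was higher by 0.18 in Macrophages and by 0.23 in Monocytes2, but stood at -0.86 in Monocytes1. The Macrophages value of 0.18 was 0.019 with thinned cells, where its interval held 0, 0.42 with TMM scaling and 0.44 with equal weight per cell. Thinning left out 51 shallower regressed Macrophages. The Monocytes1 value of -0.86 was -0.25 with thinned cells and -1.48 without the 3 cells with the most chain UMIs of each tumor. With 1 tumor in each group these differences between clusters were not tested, and the 3 tumors enter more than 1 contrast.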

How the results depend on the processing

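Of 128 alternative values, 46 stayed within counting error or, for counts, within 1.5 times, 80 moved and 2 turned in sign. The alternatives for Monocytes1 and Monocytes2, and those on overlapping features, single cells or the denominator in class II-high Macrophages, were chosen after seeing the data. Causes were not tested.

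In Macrophages the log2 differences of the chain sum are given for regressed against untreated, progressed against untreated and progressed against regressed. They were 0.70, 1.12 and 0.42 with TMM scaling, and 0.71, 1.12 and 0.41 with RLE scaling. Thinned cells gave 1.03, 1.05 and 0.019 (the last interval held 0), and equal weight per cell 0.62, 1.07 and 0.44. The median over the members was 0.90, 0.89 and 0.036. In its first and last values, 0 UMIs of H2-Oa and H2-Ob in regressed cells were set to 3, or the gene was left out. Leaving out the 5% deepest cells gave 0.77 and 0.24 for the first and last. In Monocytes1 they were 1.13, 0.36 and -0.77 with TMM, 1.05, 0.80 and -0.25 thinned, and 1.03, 0.77 and -0.25 with equal weight. Leaving out the 5% deepest cells gave 1.30 and -0.78 for the first and last. Without the 3 cells with the most chain UMIs they were 1.42, -0.055 (turned in sign, its interval held 0) and -1.48. In Monocytes2 they were -0.37, 0.15 and 0.52 with TMM, -0.30, 0.0051 and 0.30 with equal weight, -0.39, -0.11 (turned in sign) and 0.28 without the deepest 5%, and -0.23, 0.11 and 0.34 without the 3 cells. Thinned, the first and last were -0.27 and 0.30.

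The myeloid over stroma difference (log2) in the untreated, regressed and progressed tumor was 6.92, 4.67 and 7.06 without Monocytes2, 6.84, 4.65 and 7.24 with Neutrophils and Mastcells added, 7.30, 4.84 and 7.09 thinned, and 7.25, 4.72 and 6.98 with equal weight. It was 4.97 (regressed) over stroma cells with 0 leukocyte UMIs, 7.35 (progressed) without the deepest 5%, and 5.25 (regressed) with H2-Ab1 counted by its overlapping feature. Without 1 cell the progressed value was 7.26 over tumor cells and 6.63 over Bloodvessel. In stroma the regressed over untreated difference was 2.68 with TMM, 3.04 in cells with 0 leukocyte UMIs and 2.74 over shared clusters. Progressed against untreated was 1.35 thinned. Progressed against regressed was -1.39, -1.89 and -1.56 in the first 3 settings and -1.59 with the overlapping feature.

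Class II-high Macrophages were 63.5% (untreated) and 83.7% (progressed) from 3 UMIs, and 42.8%, 72.8% and 69.0% from 10 UMIs. Features past the fold of 2 in Macrophages numbered 1413, 751 and 1372, then 3385, 2089 and 3425 from 5 UMIs and 7655, 5457 and 7631 from 1 UMI. Few UMIs limit the values of the H2-O genes and Ciita, and few cells those of the 28 progressed Bloodvessel and 53 progressed Monocytes1 cells. No paired analysis was possible because each group held 1 tumor, and for the same reason no replicate could be left out.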
